A study of Homo sapiens with 9 samples.

Results

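The numbered zinc finger genes of chromosome 19 are the protein-coding genes of the GENCODE annotation whose symbol is ZNF followed by a number. There were 249 of them among 20163 protein-coding genes, and 3 of the 249 were read-through genes that join a pair of neighbours (ZNF559-ZNF177, ZNF625-ZNF20 and ZNF816-ZNF321P). They were chosen by name and position alone, and no measured value entered the choice. HepG2 cells, an established human liver cancer line, were profiled by ATAC-seq, where a transposase inserts adapters into DNA that nucleosomes leave free. The cells received 1 of 3 siRNAs at 50 nM with the reagent RNAimax and were collected 72 h later: a non-targeting siRNA (NTG), siINO80#1 or siINO80#2. Both siINO80 sequences are directed at INO80, the ATPase of the INO80 chromatin remodelling complex. How far INO80 itself was depleted was not measured in these data. Each siRNA had 3 replicates, but the values used here are 1 list of peaks per siRNA with the 3 replicates combined, so there was no spread between replicates and no difference below could be tested.

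Most of these genes encode proteins with a row of C2H2 zinc fingers, each finger a small zinc-binding fold that touches a few bases of DNA, and many carry a KRAB box at the other end of the protein. The KRAB box is known to recruit TRIM28 and, through it, the methyltransferase SETDB1, which places H3K9me3, and the best known targets of this system are retroelements. The family grew by tandem duplication, so that many members lie side by side in clusters on chromosome 19, and the bodies of the genes are themselves known to carry H3K9me3 and to be bound by KRAB zinc finger proteins.

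The DNA under the promoters illustrates 3 classes of member that recur below, and a stretch of 200 bp is given for each on GRCh37, read 5′ to 3′ on the strand of the gene. Capitals mark every match, on either strand, to the short motifs of ETS factors (CCGGAAG), SP1 (GGGCGG) and YY1 (AAGATGG), and to 4 other motifs of which none occurred in these stretches. YY1 is a subunit of the INO80 complex as well as a DNA-binding factor. A match is only a description of the letters. The first stretches are centred on the NTG summit of the 5 members with the highest lowest percentile over the 3 lists, the percentile being the rank of a promoter peak by enrichment within its list. All 5 lie in the same cluster of tandem copies, and ZNF714 held no match.
ZNF724 (chr19:23433172-23433371, minus strand): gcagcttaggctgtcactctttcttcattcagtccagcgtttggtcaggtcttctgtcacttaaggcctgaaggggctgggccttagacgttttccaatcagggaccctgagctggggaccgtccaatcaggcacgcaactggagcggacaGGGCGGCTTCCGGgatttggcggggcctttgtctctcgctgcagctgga
ZNF493 (chr19:21579759-21579958, plus strand): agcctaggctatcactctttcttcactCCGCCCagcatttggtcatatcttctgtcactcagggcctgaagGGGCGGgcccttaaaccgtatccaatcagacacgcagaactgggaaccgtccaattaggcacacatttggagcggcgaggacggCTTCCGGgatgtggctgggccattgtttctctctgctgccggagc
ZNF708 (chr19:21512098-21512297, minus strand): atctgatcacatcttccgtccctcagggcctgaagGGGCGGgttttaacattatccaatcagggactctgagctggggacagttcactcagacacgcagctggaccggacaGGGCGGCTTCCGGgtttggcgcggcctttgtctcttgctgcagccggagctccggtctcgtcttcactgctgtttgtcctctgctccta
ZNF714 (chr19:21264853-21265052, plus strand): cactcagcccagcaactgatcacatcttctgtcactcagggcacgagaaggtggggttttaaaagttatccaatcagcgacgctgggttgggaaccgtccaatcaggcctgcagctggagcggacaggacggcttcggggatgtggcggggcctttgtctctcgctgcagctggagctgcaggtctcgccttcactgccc
ZNF91 (chr19:23578255-23578454, minus strand): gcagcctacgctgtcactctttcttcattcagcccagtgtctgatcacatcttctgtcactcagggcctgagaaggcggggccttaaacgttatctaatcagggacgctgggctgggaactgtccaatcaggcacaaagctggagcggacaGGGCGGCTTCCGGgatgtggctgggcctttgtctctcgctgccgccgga

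The next stretches belong to a pair of members with a promoter peak in both siINO80 lists and none in the NTG list, and are centred on the siINO80#1 summit. ZNF614 held a YY1 match, and ZNF528 held an ETS and an SP1 match.
ZNF614 (chr19:52531697-52531896, minus strand): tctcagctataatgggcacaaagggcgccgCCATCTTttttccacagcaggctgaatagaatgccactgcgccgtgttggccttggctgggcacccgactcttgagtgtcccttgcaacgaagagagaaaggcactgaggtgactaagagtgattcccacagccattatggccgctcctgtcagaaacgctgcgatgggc
ZNF528 (chr19:52900875-52901074, plus strand): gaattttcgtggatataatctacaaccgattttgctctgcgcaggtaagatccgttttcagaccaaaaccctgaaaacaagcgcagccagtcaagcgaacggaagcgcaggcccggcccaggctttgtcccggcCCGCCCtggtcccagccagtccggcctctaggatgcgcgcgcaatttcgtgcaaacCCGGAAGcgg

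The last stretches come from members with no promoter peak in any list, and run from 150 bp before the canonical transcript start through the first 50 bp of the transcript. ZNF98, ZNF492 and ZNF208 are neighbours in the same cluster as the 5 strongest members. ZNF671 and ZNF677 lie in other clusters and are known as genes that are often methylated in tumours. All 5 held an ETS and an SP1 match, and in ZNF98 and ZNF492 both adjoined in the same order as in ZNF724, ZNF708 and ZNF91.
ZNF98 (chr19:22605099-22605298, minus strand): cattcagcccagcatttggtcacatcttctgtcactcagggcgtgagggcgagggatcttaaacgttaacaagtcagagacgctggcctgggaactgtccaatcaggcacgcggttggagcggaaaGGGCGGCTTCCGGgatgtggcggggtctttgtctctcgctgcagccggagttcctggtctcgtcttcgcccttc
ZNF492 (chr19:22816976-22817175, plus strand): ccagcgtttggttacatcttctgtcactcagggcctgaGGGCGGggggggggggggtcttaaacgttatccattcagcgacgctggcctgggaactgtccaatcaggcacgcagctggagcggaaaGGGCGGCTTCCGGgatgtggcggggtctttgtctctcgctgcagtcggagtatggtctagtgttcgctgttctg
ZNF208 (chr19:22193696-22193895, minus strand): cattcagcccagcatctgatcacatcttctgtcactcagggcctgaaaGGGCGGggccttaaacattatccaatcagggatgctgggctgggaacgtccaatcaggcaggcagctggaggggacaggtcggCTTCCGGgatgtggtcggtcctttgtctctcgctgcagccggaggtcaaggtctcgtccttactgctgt
ZNF671 (chr19:58238943-58239142, minus strand): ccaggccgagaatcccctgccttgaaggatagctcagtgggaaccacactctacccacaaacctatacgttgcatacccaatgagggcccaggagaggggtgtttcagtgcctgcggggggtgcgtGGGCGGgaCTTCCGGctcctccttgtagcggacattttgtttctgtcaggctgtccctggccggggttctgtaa
ZNF677 (chr19:53758077-53758276, minus strand): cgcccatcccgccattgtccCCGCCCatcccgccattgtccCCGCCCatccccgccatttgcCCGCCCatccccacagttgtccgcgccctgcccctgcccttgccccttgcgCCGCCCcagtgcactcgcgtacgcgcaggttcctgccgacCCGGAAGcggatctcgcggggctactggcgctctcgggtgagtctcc

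A promoter peak was a peak whose summit lay within 1 kb of any annotated transcript start of the gene, and members had a median of 5 such starts (range 1 to 25). In the NTG list, 189 of the 249 members had a promoter peak, 75.9% with a 95% Wilson interval of 70.2 to 80.8%. In the siINO80#1 list there were 194 (77.9%, 72.4 to 82.6%), and in the siINO80#2 list 175 (70.3%, 64.3 to 75.6%). Among all protein-coding genes the shares were 60.4%, 60.1% and 53.4% in the same order. These intervals cover counting error only, and genes of a cluster are not independent of each other. Members therefore more often had an open promoter than protein-coding genes in general in each list, and the siINO80#2 list was the lowest in both sets. This comparison takes no account of CpG content, and shares by CpG content are given below.

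The NTG list held 69730 peaks, of which 1001 were on chromosome 19, the siINO80#1 list held 69333 (963 on the chromosome) and the siINO80#2 list 53113 (703). All 3 lists reached down to the same false discovery rate, with a lowest −log10 q of 1.3. The lowest background recovered in each list, divided by the width of its narrowest peak, put the relative number of reads at 1 for NTG, 1.43 for siINO80#1 and 1.44 for siINO80#2. This is an estimate. With every list kept to its strongest 53113 peaks, the length of the siINO80#2 list, 187, 192 and 175 members had a promoter peak. Of 9 liver markers, 9, 8 and 7 had a promoter peak in NTG, siINO80#1 and siINO80#2. Of 5 annotated markers of other cell types, 2, 2 and 1 had one, and CD3E and COL1A1 had none in any list.

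Of the members, 167 had a promoter peak in all 3 lists (67.1%, 61.0 to 72.6%), against 50.8% of protein-coding genes. Another 46 had none in any list (18.5%, 14.1 to 23.8%), against 35.1%. The remaining 36 members had a peak in 1 or 2 lists. Of these, 4 had it in NTG alone (1.61%; protein-coding genes, 3.2%), 8 in siINO80#1 alone (3.21%; 2.64%) and 3 in siINO80#2 alone (1.2%; 0.764%). A further 16 had it in NTG and siINO80#1 (6.43%; 5.63%), 2 in NTG and siINO80#2 (0.803%; 0.838%) and 3 in both siINO80 lists but not NTG (1.2%; 1.02%). Each of these patterns rests on 16 members or fewer, and nothing is read from their distance to the background.

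The other 1231 protein-coding genes of chromosome 19 had a promoter peak in 41.3%, 42.0% and 32.7% of cases in NTG, siINO80#1 and siINO80#2. The 266 numbered ZNF genes of other chromosomes reached 76.7%, 78.9% and 72.6%. Among the 108 other coding genes that lie inside the member clusters the shares were 36.1%, 40.7% and 38.0%. In the share with a promoter peak, members thus resembled the numbered ZNF genes elsewhere in the genome more than the genes beside them on the chromosome. Members of the short arm (85) had a peak in 78.8%, 77.6% and 71.8% of cases and those of the long arm (164) in 74.4%, 78.0% and 69.5%, with overlapping intervals in every list.

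**Figure D1:**
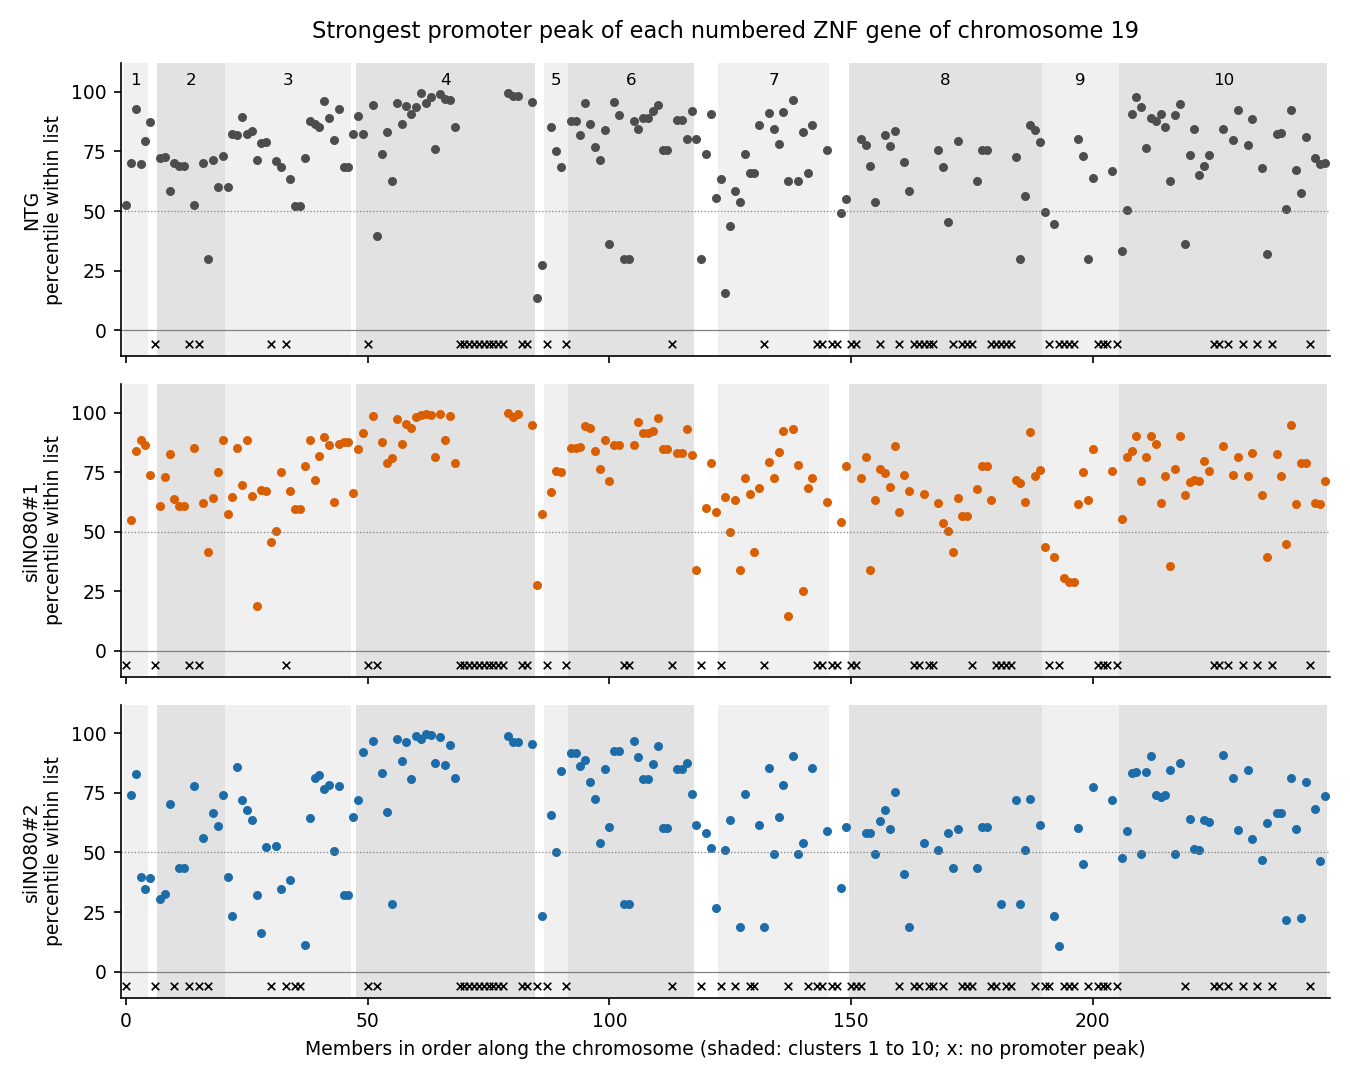
Each of the 249 members is drawn in its order along chromosome 19, 1 row per list (NTG, siINO80#1 and siINO80#2). A dot gives the percentile of its strongest promoter peak within the list, and a cross marks a member with none. The longest gap, 10 neighbouring members with no dot in any row, lies in cluster 4.

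The peaks sat on the starts themselves. Relative to the nearest start, the median NTG summit lay at −38 bp, just upstream, and the medians of siINO80#1 and siINO80#2 at −43 and −42 bp. Measured from the canonical start, 81.0%, 82.5% and 81.1% of the members with a peak had the summit within 250 bp, compared with 62.0%, 66.5% and 64.9% of all protein-coding genes with one. The limit of 1 kb therefore decided few calls. The NTG members just inside it were ZNF404 at 411 bp, ZNF558 at 462 bp and ZNF121 at 511 bp from a start, and those just outside were ZNF614 at 1949 bp, ZNF296 at 2679 bp and ZNF844 at 4989 bp. Neighbours can share a peak. The 189 NTG members rested on 193 distinct peaks, of which 13 served a pair of members (24 members in all) and 29 also lay within 1 kb of another coding gene (28 members).

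Strength was read as fold enrichment, the reads at the summit over the local background of the same list. Because each list has its own background, a peak was also ranked by its percentile among all peaks of its list. The strongest promoter peak per member had a median percentile of 77.6 in NTG, 75.1 in siINO80#1 and 64.9 in siINO80#2, at median fold enrichments of 5.15, 4.58 and 3.79. All protein-coding genes with a promoter peak had medians of 79.7, 79.1 and 76.1, and the other genes of chromosome 19 had 57.3, 57.4 and 48.3. Other coding genes inside the clusters had 77.8, 75.2 and 62.7, and numbered ZNF genes elsewhere 83.9, 83.0 and 76.6. The strongest 10% of each list held 36, 30 and 23 members, or 19.05%, 15.5% and 13.1% of those with a peak. Of all protein-coding genes with a peak, 30.4%, 29.9% and 27.5% were that strong, a larger share in each list. Over the 167 members with a peak in all 3 lists, the median difference from NTG was 0.0372 percentile points in siINO80#1, with 84 members higher and 83 lower. In siINO80#2 it was −10.7 points, with 44 higher and 123 lower. The same differences over 10236 protein-coding genes were −0.247 and −3.80 points, and over 369 other genes of chromosome 19 they were −3.24 and −11.9 points. The lower rank in siINO80#2 was therefore also seen at the other genes of the chromosome. It was −10.6 points over 37 other coding genes inside the clusters and −4.26 points over 184 numbered ZNF genes elsewhere. In strength and in the siINO80#2 difference, members thus lay closer to the other coding genes inside the clusters than to ZNF genes elsewhere. That set is small, and 29 NTG member peaks also lay within 1 kb of another coding gene. A shared peak can enter both medians, so part of the likeness may be built in. In NTG strength, the other genes of chromosome 19 (57.3) lay further from members (77.6) than ZNF genes elsewhere did (83.9). The siINO80#1 and siINO80#2 differences both use the same NTG list. They also compare ranks within lists of unequal length, 69730 peaks in NTG and 53113 in siINO80#2. With lists of equal length the median percentile in NTG was lower, as given below, so the size of the difference depends on list length.

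**Figure D2:**
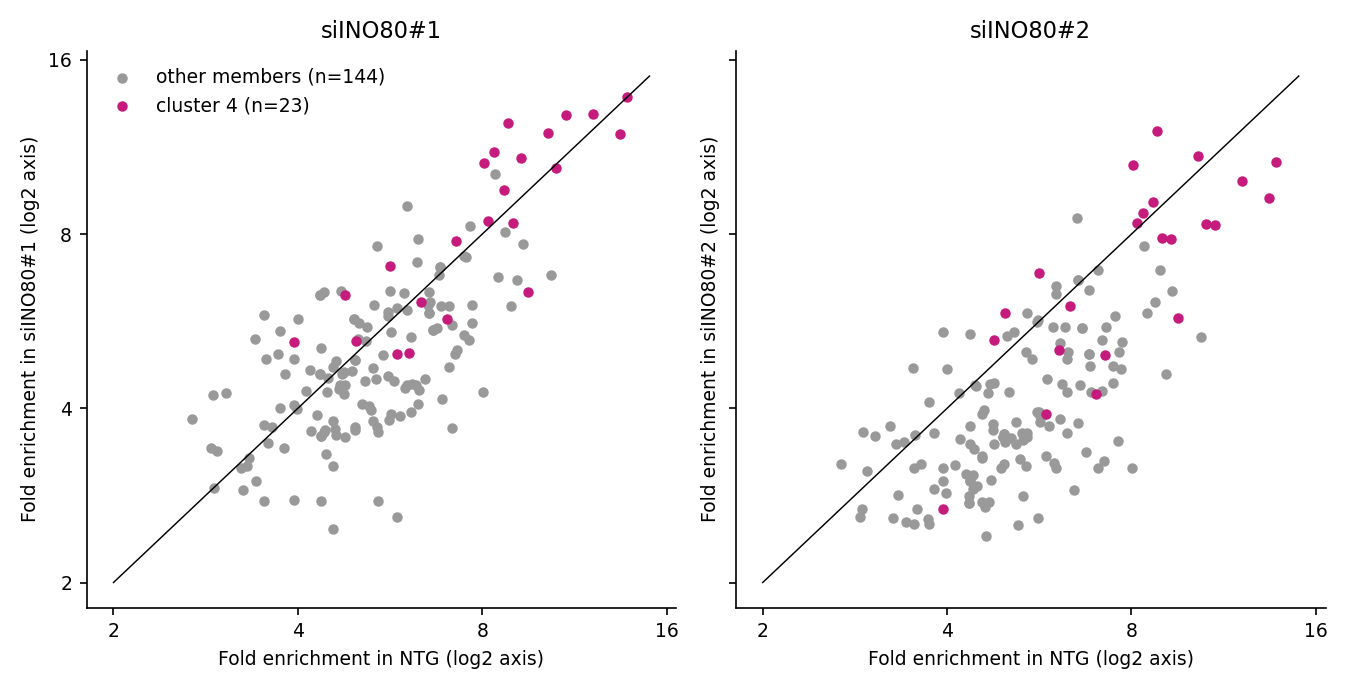
Fold enrichment of the strongest promoter peak of each member in siINO80#1 and in siINO80#2 (vertical axes) against NTG (horizontal axes), for the 167 members with a promoter peak in all 3 lists. Members of cluster 4 reach the highest values, up to 13.8 in NTG and siINO80#1 and 12.04 in siINO80#2.

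The members fell into 10 clusters when neighbours less than 500 kb apart were joined and at least 5 members were asked for, with 14 members outside. From the short-arm end, cluster 1 (ZNF554 to ZNF77, 5 members) had a promoter peak at 5 members in NTG, 4 in siINO80#1 and 4 in siINO80#2, and cluster 2 (ZNF414 to ZNF846, 14 members) at 12, 12 and 10. Cluster 3 (ZNF653 to ZNF791, 26 members) had 24, 25 and 22. Cluster 4 (ZNF101 to ZNF254, 37 members) had 24, 23 and 23. These 4 clusters lie on the short arm. On the long arm, cluster 5 (ZNF302 to ZNF792, 5 members) had 3 in each list, cluster 6 (ZNF565 to ZNF573, 26 members) had 25, 23 and 25, and cluster 7 (ZNF575 to ZNF180, 23 members) had 20, 19 and 15. Cluster 8 (ZNF175 to ZNF331, 40 members) had 22, 29 and 23, cluster 9 (ZNF628 to ZNF835, 16 members) had 7, 10 and 6, and cluster 10 (ZNF264 to ZNF446, 43 members) had 36, 36 and 35. The share in NTG thus ran from 43.8% in cluster 9 to 100% in the small cluster 1, and the intervals of the small clusters were wide, 56.6 to 100% in cluster 1 and 23.1 to 88.2% in cluster 5.

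**Figure D3:**
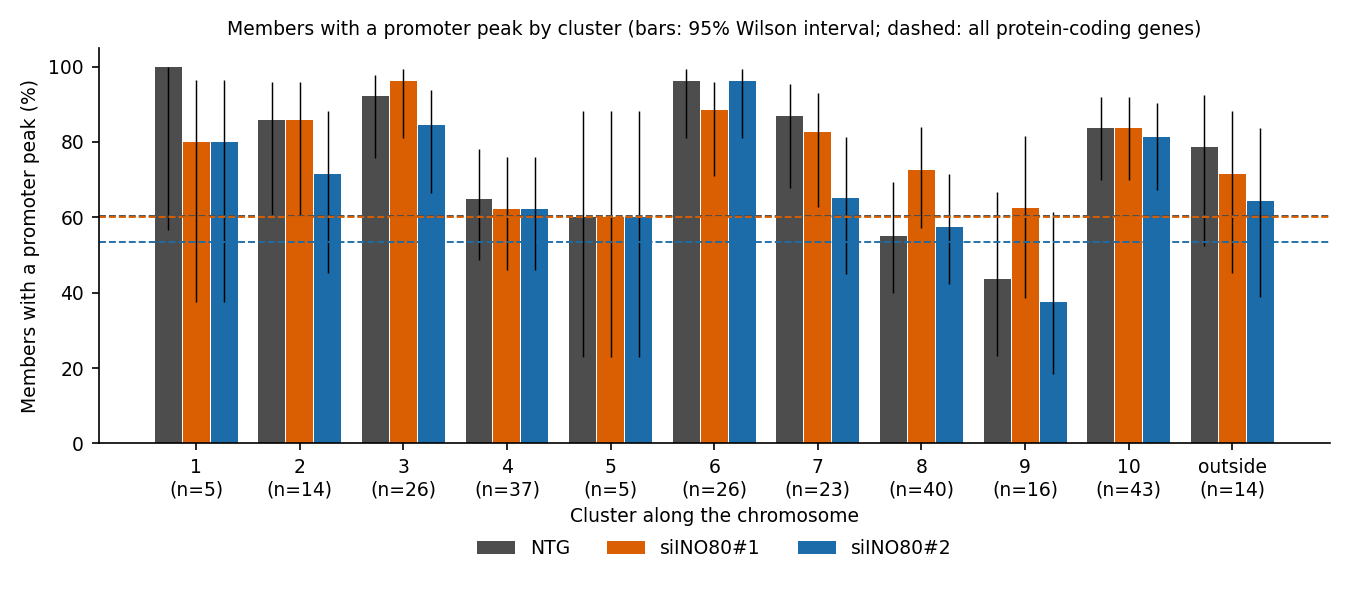
Share of members with a promoter peak (vertical axis, percent) in each cluster and outside the clusters, for the 3 lists, with 95% Wilson intervals as bars. Clusters 8 and 9 are low in NTG (55.0% and 43.8%) and clusters 3 and 6 are high (92.3% and 96.2%).

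Cluster 4 spans 4.53 Mb beside the centromere (chr19:19779605-24312770) and held the strongest members and the largest number of closed ones, though not the largest share. Of its 37 members, 23 had a promoter peak in all 3 lists, 13 had none in any, and ZNF93 had one in NTG alone. Over all protein-coding genes, 35.1% had none in any list. The cluster shares with a peak were 64.9% in NTG, 62.2% in siINO80#1 and 62.2% in siINO80#2. Those of all protein-coding genes were 60.4%, 60.1% and 53.4%. The median percentile of those with a peak was 94.2 in NTG, 95.1 in siINO80#1 and 95.3 in siINO80#2, and 15, 15 and 14 of them were in the strongest 10% of the list. The 5 members with the highest lowest percentile over the lists all came from it. ZNF724 had a fold enrichment of 13.8 in NTG, 13.8 in siINO80#1 and 10.6 in siINO80#2. At its summit 106, 122 and 96 reads were recovered from the enrichment and the p-value. ZNF493 had 12.1, 12.9 and 9.88, ZNF708 10.3, 11.97 and 10.9, and ZNF714 13.4, 11.9 and 9.24. ZNF91, known for repressing SVA retroelements in primates, had 10.6, 10.4 and 8.34 (chr19:23577450-23578623 in NTG). The highest single value in siINO80#2, 12.04, belonged to ZNF431, also of this cluster, and ZNF708 ranked below ZNF543 of cluster 10 in NTG (percentiles 97.8 and 97.9).

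ZNF93, known for repressing LINE-1 elements, was the exception in that cluster. Its promoter peak was found in NTG alone, with a fold enrichment of 3.11 from 14 reads. A second peak, inside the gene at chr19:20070084-20070310, was in all 3 lists with fold enrichments of 4.77, 4.06 and 4.10. Over the 23 members of the cluster with a peak in all 3 lists, the median fold enrichment was 8.35 in NTG, 8.44 in siINO80#1 and 7.89 in siINO80#2. Of these, 16 ranked higher in siINO80#1 than in NTG and 7 lower, and in siINO80#2 10 ranked higher and 13 lower, with a median difference of −0.70 points. Cluster 6 was close to this, at −3.16 points with 10 of 23 members higher. In cluster 3 the same difference in siINO80#2 was −21.8 points, with 1 of 22 members higher. In cluster 8 it was −14.9 points, with 1 of 19 higher, and in cluster 10 −10.7 points, with 10 of 35 higher. These ranks depend on the length of each list, which was unequal. Whether the clusters differ in this was not tested.

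Inside cluster 4, closed members stood together. The 10 neighbours ZNF208, ZNF257, ZNF676, ZNF729, ZNF98, ZNF492, ZNF99, ZNF723, ZNF728 and ZNF730 had no promoter peak in any list, and the 1.21 Mb that they span (chr19:22115760-23330023) held 0 peaks of any kind in all 3 lists. The average over chromosome 19 was 16.9 peaks per Mb in NTG, 16.3 in siINO80#1 and 11.9 in siINO80#2. On the short-arm side of this run, 20, 19 and 19 of 21 members had a promoter peak. The longest row of members open in all 3 lists, the 16 from ZNF682 to ZNF43, ends at its edge. On the centromere side, 4 of 6 members had a peak in each list, ZNF724 and ZNF91 among them. No other run of closed members was longer than 3: ZNF667, ZNF471 and ZNF470 in cluster 9 were the next. Being selected as the longest run after the values were seen, it is a description.

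The promoters of cluster 4 were alike in sequence whether they were open or closed. Over the 500 bp around the canonical start, pairs of members open in all 3 lists had a median identity of 80.3% (242 of 253 pairs aligned over at least 400 columns). Pairs of 1 open and 1 closed member had 79.6% (258 of 299), and pairs of closed members 78.7% (65 of 78). ZNF208, closed, and ZNF91, open, were 85.8% identical, more than the 83.1% between ZNF724 and ZNF91, which were both open. Each 500 bp window was also sought in the whole genome at 95% identity and 80% coverage. All 46 closed members and all 167 members open in every list had 1 place each. ZNF28 and ZNF468, neighbours in cluster 8 that share 1 siINO80#1 peak, were the only members with 2.

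The letters that adjoin in ZNF724 and ZNF91, an SP1 match followed directly by an ETS match, form a 13-letter run (GGGCGGCTTCCGG, or CCGGAAGCCGCCC on the other strand). It was sought in all promoters after the sequences had been seen. It occurred in 12 members, all of cluster 4, in 0 of the 212 other members and in 11 of 19892 other coding genes (0.0553%). Of those 11, 3 were numbered ZNF genes of other chromosomes (3 of 266, 1.13%), all open in all 3 lists. Of the 12, 5 were open in all 3 lists (ZNF430, ZNF708, ZNF724, ZNF85 and ZNF91) and 7 in none (ZNF492, ZNF681, ZNF723, ZNF726, ZNF728, ZNF730 and ZNF98). The run was thus found in 5 of 23 open and 7 of 13 closed members of the cluster.

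Base composition separated open from closed promoters over all coding genes but not over the members. CpG observed over expected, the number of CG steps relative to the C and G content, had a median of 0.836 in coding genes open in all 3 lists and 0.397 in those open in none. In the members it was 0.761 and 0.765. A value of at least 0.6 was reached by 88.1% and 37.8% of coding genes and by 80.2% and 76.1% of members in these classes. Cluster 4 stood low, with a median of 0.449 and 5 of 37 members at 0.6 or above, and its open members had 0.44. Outside cluster 4, 132 of 144 open members and 32 of 33 closed members reached 0.6. Of the 13 members under 0.4, 11 had a promoter peak in NTG (84.6%, 57.8 to 95.7%), compared with 22.5% of coding genes under 0.4. Among other coding genes inside the clusters, 4 of 47 under 0.4 had one (8.51%). From 0.4 to 0.6 the NTG shares were 72.2% of 36 members and 40.5% of coding genes. From 0.6 to 0.8 they were close, 77.5% of 102 members and 73.4% of coding genes. At 0.8 or above they were 74.5% of 98 members and 77.8% of coding genes. The higher share of members in NTG was thus found mainly at low CpG content.

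**Figure D4:**
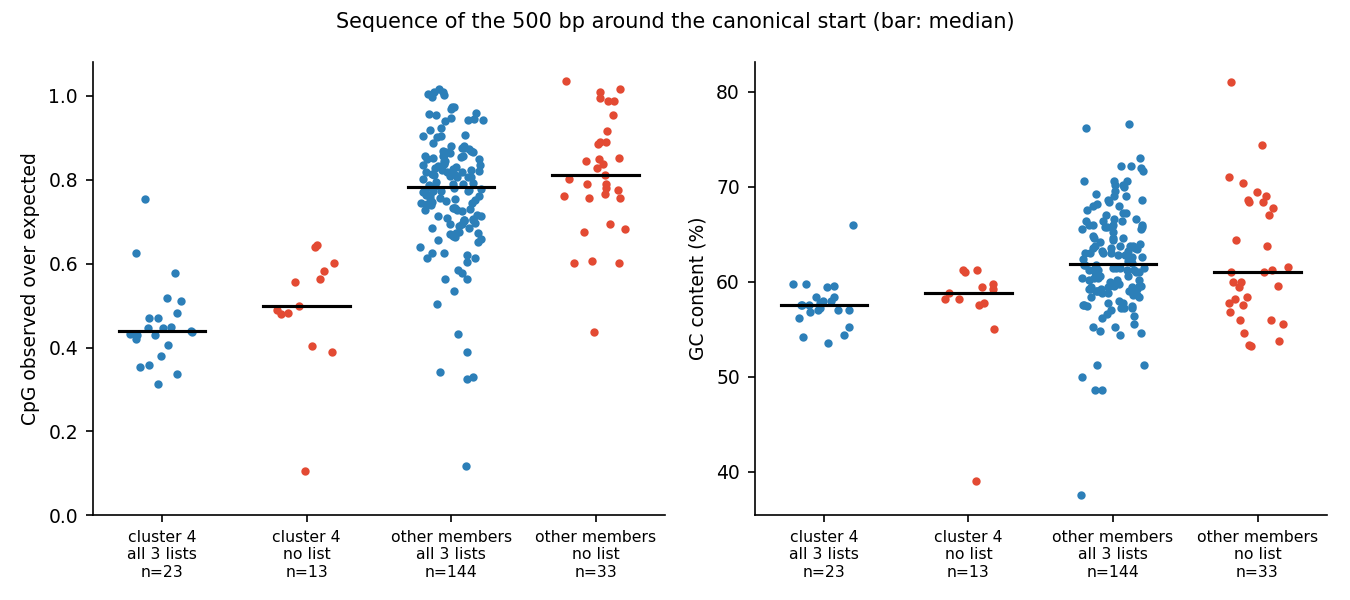
CpG observed over expected (left) and GC content in percent (right) in the 500 bp around the canonical start (vertical axes). Members of cluster 4 and other members are split by promoter peak in all 3 lists or in no list, with the median as a bar. The CpG medians are 0.440 and 0.4995 in open and closed members of cluster 4, and 0.783 and 0.811 in open and closed members outside it.

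ETS motifs were frequent. CCGGAAG was found within 250 bp of the canonical start in 125 of 249 members (50.2%, 44.03 to 56.4%), in 16.7% of all protein-coding genes, in 17.6% of the other genes of chromosome 19 and in 35.3% of numbered ZNF genes elsewhere. It was found in 56.5% of closed members and 47.9% of members open in all lists, whereas over all genes the shares were 7.39% and 24.0%. By cluster it ran from 0 of 5 in cluster 1 and 4 of 26 in cluster 3 to 30 of 40 in cluster 8 and 29 of 37 in cluster 4. SP1 (GGGCGG) was found in 79.5% of members and 69.2% of genes. YY1 (AAGATGG) was found in 27 members (10.8%; all genes, 9.64%): 20 of 167 open in all lists, 7 of 36 open in 1 or 2 and 0 of 46 closed, where the interval reaches 7.71%. Cluster 2 held it in 6 of 14 members and cluster 10 in 0 of 43. NRF1 (GCGCATGC, 5.22% of members; 4.66% of genes), CRE (TGACGT, 12.4%; 11.3%), AP-1 (TGANTCA, 7.23%; 7.47%) and the CTCF core (AGGGGGC, 22.9%; 26.4%) lay close to the shares of all genes.

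**Figure D5:**
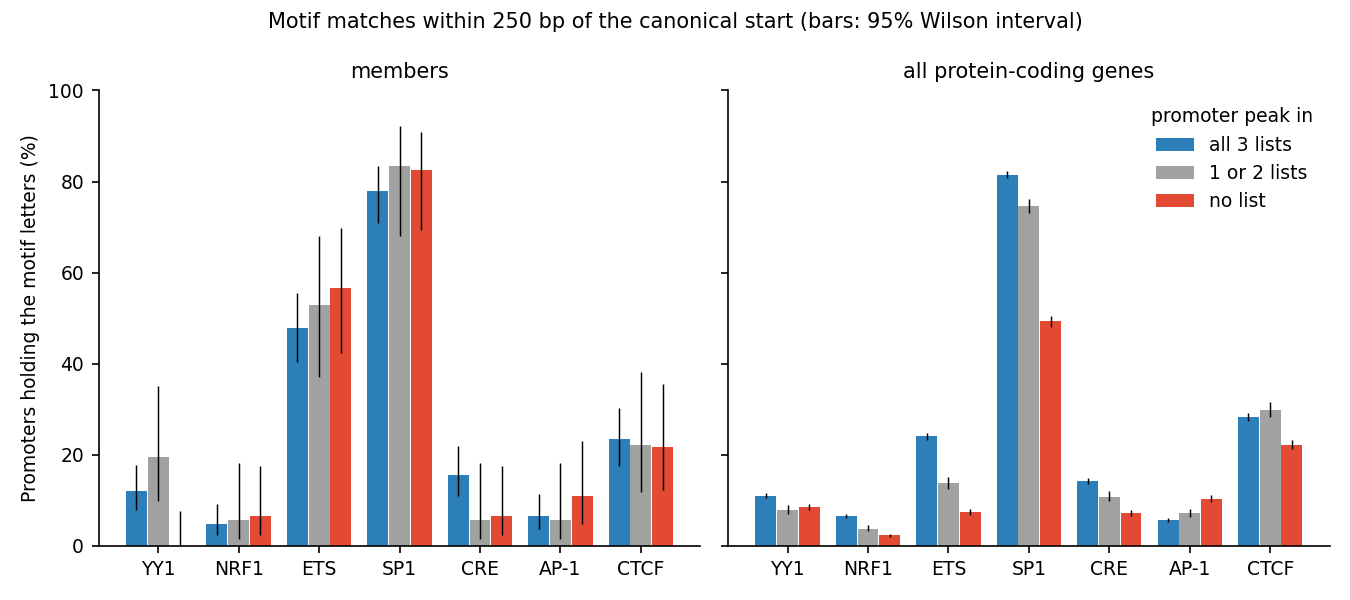
Share of promoters (percent) that hold each of 7 motifs on either strand within 250 bp of the canonical start, for members and for all protein-coding genes, with 95% Wilson intervals for the members. With the classes joined, ETS shows the widest gap, 50.2% against 16.7%.

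Cluster 8 held the most members that differed between lists, 11 of 40, but not the largest share. The share was larger in cluster 9 (of 16 members, 5 open in all lists and 5 in none) and in cluster 7 (of 23, 14 and 2). Over all protein-coding genes with a promoter sequence, 2843 of 20141 had a peak in 1 or 2 lists. Of the 40 members of cluster 8, 19 were open in all lists and 10 in none. Another 4 were open in siINO80#1 alone, 1 in siINO80#2 alone and 3 in NTG and siINO80#1. All 3 members that were open under both siINO80 siRNAs but closed in NTG belong to cluster 8. ZNF614 had a fold enrichment of 4.71 in siINO80#1 (28 reads, chr19:52531364-52531978) and 3.69 in siINO80#2 (23 reads), while the nearest NTG peak (chr19:52529593-52529932, 3.94) lay 1949 bp from a start. ZNF528 had 3.90 (23 reads) and 3.31 (20 reads). ZNF611 had 2.92 and 2.999, but with its summits at different places, 53239019 and 53238116. ZNF160 (3.74) and ZNF836 (3.49) had a peak in siINO80#1 alone, as did ZNF28 and ZNF468 through their common peak (3.41), and ZNF347 (2.68) in siINO80#2 alone. Apart from ZNF614 in siINO80#1, all of these lay below the median of members in the same list, 4.58 in siINO80#1 and 3.79 in siINO80#2.

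The most frequent difference was a peak in NTG and siINO80#1 but not in siINO80#2, with 16 members, of which 5 were in cluster 7. The strongest were ZNF813, with fold enrichments of 5.95 in NTG and 4.43 in siINO80#1, and ZNF649, known as a repressor of transcription downstream of growth factor signals, with 5.40 and 4.39. ZNF233 had 4.15 and 4.06, and ZNF221 4.15 and 3.90. ZNF582, often methylated in tumours, had 2.91 and 3.74. The median NTG percentile of these 16 was 60.5, below the 79.8 of members open in all lists. The members in NTG alone were ZNF575 (3.96), ZNF554 (3.52), ZNF93 (3.11) and ZNF780B (2.91). ZNF568, known in the mouse for control of a placental growth factor transcript, shared its peaks with ZNF829, and had 2.91 in NTG and 2.68 in siINO80#2. With 13 to 29 reads at the summits of members found in a single list, presence in 1 list and absence in another was not a measured difference.

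Members known by function were spread over all classes. ZNF274, which recruits SETDB1 to zinc finger gene bodies, was open in every list with fold enrichments of 5.74, 4.46 and 3.90 in NTG, siINO80#1 and siINO80#2. ZNF146, a protein made of zinc fingers with no KRAB box, had 6.56, 5.84 and 6.67, and ZNF382, described as a tumour suppressor, had 5.04, 5.62 and 4.26. ZNF224, a repressor with a KRAB box, had 5.19, 5.52 and 3.79. ZNF558 had 4.68, 4.39 and 2.76. The imprinted gene ZNF331, which has 25 starts, had 5.30, 4.70 and 3.63, with the siINO80#2 summit at another start than the other lists. ZNF671, ZNF677 and ZNF577, which are known to be methylated in several tumours, had no promoter peak in any list. Other closed members with many starts were ZNF415 (18 starts), ZNF814 (13), ZNF302 (11) and ZNF506 (10).

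The strongest NTG member differed in behaviour between clusters. ZNF543 in cluster 10 had fold enrichments of 10.4 in NTG, 6.80 in siINO80#1 and 5.31 in siINO80#2, and ZNF226 in cluster 7 had 9.32, 7.68 and 6.38. ZNF799 in cluster 3 had 9.10, 6.66 and 4.58, and ZNF556 in cluster 1 had 7.71, 5.61 and 5.20. ZNF790 in cluster 6 had 8.91, 6.02 and 6.93, with the NTG summit at another of its starts. ZNF761 in cluster 8 (6.27, 7.15 and 4.26) and ZNF846 in cluster 2 (4.70, 6.39 and 4.40) were highest in siINO80#1. As these were chosen for a high NTG value, a lower value in the other lists carries no information about the siRNAs.

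The bodies of the members were poor in peaks. Counting summits inside a gene and over 1 kb from every annotated start, the 6.35 Mb of member bodies held 19 peaks in NTG, 19 in siINO80#1 and 8 in siINO80#2, or 2.99, 2.99 and 1.26 per Mb. The bodies of other chromosome 19 genes held 7.83, 6.43 and 4.04 per Mb, numbered ZNF genes elsewhere 16.7, 17.4 and 12.6, and all coding genes 19.7, 19.4 and 14.1. Most of the member peaks were intronic (17, 17 and 7). The last exons, where the finger arrays are usually encoded, made up 0.789 Mb and held 1, 0 and 0 peaks. That was 1.27, 0 and 0 per Mb, beside 3.23, 3.23 and 1.33 per Mb in introns. With so few peaks, no depletion of the last exons is read from this. Of the 19 NTG peaks, 8 overlapped a siINO80#1 peak (42.1%) and 5 a siINO80#2 peak (26.3%). The same shares were 49.8% and 41.0% over all coding genes, and 44.6% and 28.7% over other genes of chromosome 19.

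The body peaks lay in 17 members in NTG, 17 in siINO80#1 and 5 in siINO80#2. ZNF507, which lies outside the clusters, held the strongest, at chr19:32864384-32865117 in NTG with fold enrichments of 12.4, 10.1 and 9.44 in NTG, siINO80#1 and siINO80#2 (percentiles 99.3, 97.8 and 97.9). Its own promoter peak was weak, at 2.89, 3.42 and 2.59. ZNF536, a long gene of 489 kb known from neuronal differentiation, held 3, 2 and 3 body peaks. ZNF709 had 1 in each list, at 6.05, 5.85 and 4.65, and the read-through gene ZNF816-ZNF321P had 1 at 2.76, 3.92 and 2.69. No member of cluster 1, 5 or 7 had a body peak in any list.

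The proteins of open and closed members were alike in the features counted. A coding sequence could be translated for 245 members. The number of C2H2 fingers had a median of 12 (range 0 to 36), and a KRAB core was found in 206 members (84.1%). By promoter class the KRAB share was 85.3% in members open in all lists, 77.8% in those open in 1 or 2 and 84.8% in closed ones, and the median number of fingers was 13, 10 and 12. Members with a KRAB core had a promoter peak in 76.2%, 77.7% and 70.9% of cases in NTG, siINO80#1 and siINO80#2, and the 39 without in 71.8%, 76.9% and 64.1%, with overlapping intervals. ZNF208, closed in every list, had the most fingers of all, 36. ZNF91, among the strongest, had 31. The clusters differed more, since a KRAB core was found in 6 of 16 members of cluster 9 and in 39 of 40 of cluster 8.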

How the data were processed

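ATAC-seq of HepG2 cells was deposited by the authors as 1 narrowPeak list per siRNA (3 lists for 9 samples, replicates combined), on hg19. The submitters' processing notes name Trim Galore 0.4.1, Bowtie2, SAMtools, MACS2 and deepTools 2.2.4. Their parameters, and whether reads were shifted for the transposase, are not given in the sources used here. Such a shift would move summits by a few bases only. Per the deposited columns, the authors give each peak a fold enrichment (a ratio of summit to local background), −log10 p and −log10 q values, and a summit offset. The deposited score column was not used.

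Peaks were joined to genes of GENCODE 44 on GRCh37. A peak with several summits was counted once, at the summit of highest enrichment. With 1 list per siRNA there was no replicate value, so no test was run. Shares have 95% Wilson intervals. Reads at a summit were recovered as the whole number that satisfies both fold enrichment and −log10 p (largest error for members, 3.77e-05). Read depth itself is unknown. Motifs, CpG content and copies (BLAST+ 2.17.0) were taken from the 500 bp around the canonical start of GENCODE. Proteins were translated from GENCODE transcripts, fingers and KRAB cores being matched by their spacing of residues. Python 3.11.15, pandas 2.3.3, pysam 0.24.0 and Biopython 1.88 were used. The merging of summits, the promoter calls, the clusters and the recovery of reads were checked on simulated data, and the other calculations were not.

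The members and lists were chosen with earlier results of these data known. Members named were the 5 with the highest lowest percentile over the lists; per cluster, the one with the highest NTG fold enrichment and the closed one with the most starts; up to 4 per pattern of lists by percentile; the 3 with the most body peaks; and 15 known by function. Others were named after their values were seen. Alternatives varied the distance to a start, the starts used, the q limit, the list size, the summit rule and the gap between clusters.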

Additional observations from a re-analysis of the deposited data

Results flagged for a closer look

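The number of members with a promoter peak moved in opposite directions under the siRNAs against INO80. Relative to NTG it was higher by 5 members in siINO80#1 and lower by 14 (a difference of −14) in siINO80#2. As shares these were 75.9% in NTG, 77.9% in siINO80#1 and 70.3% in siINO80#2, beside 60.4%, 60.1% and 53.4% of all protein-coding genes, which were also lowest in siINO80#2. Each siRNA had 1 list, and the difference between both effects was not tested. At equal list size the counts were 187, 192 and 175, and under a q limit of 5 on the −log10 scale there were 161, 169 and 119, so the direction was the same and the size depended on the q limit.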

How the results depend on the processing

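No paired analysis was possible because the 3 replicates of a siRNA were merged into 1 list, and replicates could not be left out in turn for the same reason. Of 195 alternative values of the main results, 182 stayed within the limit of 1.5 times for counts and shares or within the interval, and 13 moved, as did 7 of 303 values of single clusters. Of the 13, 11 came from keeping peaks with a −log10 q of at least 5. Members open in all 3 lists then numbered 109, those in NTG alone 9 and those in both siINO80 lists but not NTG 7. The median percentile was 58.1, 53.2 and 53.3 in NTG, siINO80#1 and siINO80#2, the share of other chromosome 19 genes 26.0% in NTG and 18.4% in siINO80#2, and the body peaks 6, 6 and 3. With every list kept to its strongest 53113 peaks, the median percentile was 70.9 in NTG and 67.5 in siINO80#1. Percentiles were set anew within each shortened list. Over all alternatives the count ran from 161 to 190 in NTG, between 169 and 194 in siINO80#1, and between 119 and 175 in siINO80#2. With 1 start per gene 69 members were closed in all lists. The span from ZNF208 to ZNF730 held no peaks in any list, so most alternatives could not change the calls there. Its 10 members had no promoter peak under any alternative. This check and the use of every summit were chosen after seeing the data. Weak peaks in 1 list rest on 13 to 29 reads, which limits what their absence elsewhere shows.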

Other observations

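Genes of the silencing pathway that KRAB zinc finger proteins use were mostly open. Of 19 such genes found, 17 had a promoter peak in all 3 lists, against 50.8% of all protein-coding genes, and CHD3 and UHRF1 had none in any. TRIM28, which binds the KRAB box, had fold enrichments of 4.25 in NTG, 4.99 in siINO80#1 and 3.79 in siINO80#2. SETDB1, the methyltransferase, had 2.70, 5.83 and 5.37. ATF7IP, the partner of SETDB1, had 3.74, 5.69 and 4.74. MPHOSPH8, which reads H3K9me3, had 12.8, 10.2 and 11.96, and SMARCAD1, a remodeller recruited by TRIM28, had 9.13, 12.7 and 8.73. Others were highest in NTG, with DAXX at 5.94, 3.70 and 3.65, the methyltransferase DNMT1 at 4.38, 2.83 and 2.93, and the deacetylase HDAC1 at 6.05, 5.28 and 4.35. With 1 list per siRNA none of these differences could be tested.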
